A study of Mus musculus with 15 samples.

Results

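Axin2 and 9 other components of the canonical Wnt pathway were followed in single mouse oocytes at germinal vesicle (GV) stage and at metaphase II (MII). The 10 genes were Lrp6, Dvl1, Dvl2, Axin1, Axin2, Apc, Gsk3a, Gsk3b, Ctnnb1 and Tcf7l1, out of 28785 gene IDs with a count in the deposited files. They were chosen by the level of Axin2 in these oocytes, which was high in both stages, so that level is a description here. Fully grown GV oocytes are arrested in the first meiotic prophase, and MII oocytes have completed the first division and wait for fertilisation.

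In the canonical Wnt pathway a secreted Wnt ligand binds a Frizzled receptor together with an LRP coreceptor, and Dishevelled proteins carry the signal inward. Without a ligand, a complex built on the scaffold Axin, with APC and the kinase GSK3, marks β-catenin for degradation. β-catenin that escapes this complex enters the nucleus and acts with TCF/LEF factors, and Axin2 is itself a widely used target gene of that step.

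The 15 libraries were made with MATQ-seq, a method that amplifies total RNA of a single cell, and comprised 6 MII and 9 GV oocytes. MII oocytes came from females primed with pregnant mare serum gonadotropin (7 IU) and given human chorionic gonadotropin (7 IU) approximately 48 h afterwards. After 20 h more they were recovered from the oviducts, and hyaluronidase (300 IU/mL) was used to remove the cumulus cells. GV oocytes were taken 44 h after the first hormone alone (7 IU), from females aged around 6 to 8 weeks. Neither strain nor mouse is named in the labels, so each stage counts as 1 sample, and no test between stages was made. SDs describe the spread between these oocytes.

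Total counts ran from 808641 to 2348281 in MII oocytes and from 3687610 to 7103063 in GV oocytes. Of the 10 oocyte markers, among them Gdf9, Zp3 and Mos, all 10 were detected in both stages, with summed levels of 5449 to 7726 CPM (counts scaled to a common library total) in MII and 7477 to 28546 CPM in GV oocytes. Of 16 cumulus and granulosa markers, 10 were detected in MII and 15 in GV oocytes. They summed to 106 to 278 CPM in MII and 255 to 466 CPM in GV oocytes. The top 2 of them, led by Serpine2, made up 91.5% of this signal in MII and 75.4% in GV oocytes. Amh, Inha, Inhba, Foxl2, Hsd17b1 and Ptx3 were at 0 in MII, and Tnfaip6 was at 0 in GV. One feature that the annotation used here does not name took 15.7% to 61.2% of counts in MII oocytes, 3.43% to 11.2% in GV7 to GV9 and none in GV1 to GV6. MII5 and MII6 stood apart in that it took 52.6% and 61.2% of their counts. GV1 and GV2 stood apart in their counts of Wnt ligands and of some receptors, and counts over gene lists are given with and without them where they differ. The column headers of the files also differ between MII, GV1 to GV6 and GV7 to GV9, so the stage cannot be told apart from the set of files. In CPM the log2 ratio MII/GV of the median measured gene (at least 5 CPM in the higher stage) was -0.98, and ratios are given relative to that gene unless stated otherwise. In oocytes of a stage, less RNA of a gene and more RNA of others cannot be told apart from such values.

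The upstream bases of Axin2 and Gsk3a are shown because Axin2 is the highest of the 10 genes and Gsk3a is the member whose window held a core TCF/LEF motif. The windows are the 250 bases before the annotated start in RefSeq's table on build GRCm38.p6, written 5′ to 3′ on the strand of the gene. The Axin2 window lies at chr11:108920099-108920348 on the plus strand and the Gsk3a window at chr7:25237852-25238101 on the minus strand, both outside exons of the older annotation used for names. Capitals mark the motif.
Axin2: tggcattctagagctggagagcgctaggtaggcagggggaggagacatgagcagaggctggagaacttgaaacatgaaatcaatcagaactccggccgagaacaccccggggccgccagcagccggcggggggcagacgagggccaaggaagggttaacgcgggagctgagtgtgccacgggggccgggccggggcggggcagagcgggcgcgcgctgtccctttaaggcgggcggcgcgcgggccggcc
Gsk3a: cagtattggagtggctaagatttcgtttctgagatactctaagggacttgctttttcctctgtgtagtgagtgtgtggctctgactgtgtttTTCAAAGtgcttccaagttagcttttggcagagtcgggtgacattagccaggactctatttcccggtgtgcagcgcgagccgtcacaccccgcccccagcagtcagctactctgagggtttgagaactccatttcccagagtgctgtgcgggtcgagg

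The motif was searched on both strands as CTTTG followed by 2 letters that are each A or T. It occurred in 4874 of 32851 windows of the same length (14.8%) and in 1 of the 8 windows available for 7 of the 10 genes. In Gsk3a it was CTTTGAA read on the opposite strand, 158 bases before the start. The Axin2 window held no match, which says only that these letters are not in this window. It held 24 CpG dinucleotides against a median of 6 over all windows, more than 88.0% of them, and 69.2% of its bases were G or C.

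Axin2, the inducible scaffold of the destruction complex, had the highest level per length of the 10 genes in both stages. Its level was 89.2 CPM in the lowest, 655 in the median and 768 in the highest MII oocyte, against 226, 549 and 1160.5 CPM in the lowest, median and highest GV oocyte. MII1 to MII4 lay close together between 639 and 768 CPM, and MII5 and MII6 were the low ones in CPM at 89.2 and 267. Against the median gene of each oocyte, log2 levels were 3.16 in MII5, 4.69 in MII6 and 5.06 to 5.66 in MII1 to MII4. The GV median on that scale was 4.22, so MII6 lay above it. The ranges of the stages overlapped on both scales. Summed over oocytes, Axin2 stood at 501 CPM (95% Poisson interval 487 to 515) in MII and 674 CPM (667 to 682) in GV oocytes, intervals that cover counting error only.

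Divided by merged exon length, these sums were 90.9 CPM per kb in MII and 122 CPM per kb in GV oocytes. Among 9304 measured protein-coding genes this level ranked 260 from the top in MII and 272 in GV oocytes. Of these genes, 97.2% lay below it in MII and 97.1% in GV oocytes.

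The log2 ratio MII/GV of Axin2 relative to the median measured gene was 0.55, with a combined SD over oocytes of 1.26. In CPM with no such centring it was -0.43, so its direction depends on the zero point. The spread between oocytes was larger than either value.

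The 2 sets of GV files differed for this gene, with 368 CPM over GV7 to GV9 and 786 CPM over GV1 to GV6. The ratio of Axin2 was therefore 1.30 with GV7 to GV9 alone and 0.34 with GV1 to GV6 alone.

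The other scaffold, Axin1, is the constitutive partner in the same complex. It had 1.82 CPM in the lowest, 21.04 in the median and 59.2 in the highest MII oocyte, against 30.6, 62.1 and 137 CPM in GV oocytes. Its lowest MII oocyte was MII5 with 3 counts, at the floor of 3 counts used here. MII2 and MII3 reached into the GV range in CPM. Set against each oocyte's median gene, MII4 and MII6 did so as well, with log2 levels of 0.84 and 0.73. The GV range on that scale was 0.06 to 2.56. The relative log2 ratio was -0.48 with a combined SD of 1.52, with 0.25 when GV7 to GV9 alone were set against MII and -0.69 with GV1 to GV6 alone.

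Within an oocyte, the share of Axin2 in the counts of both Axin genes does not depend on scaling between libraries. It was 94.7% over MII oocytes (95% Clopper-Pearson interval 94.0 to 95.3) and 89.7% over GV oocytes (89.4 to 90.1). Over single oocytes the share averaged 95.3% ± 2.59 (SD, n = 6) in MII and 89.2% ± 2.28 (SD, n = 9) in GV. It ran from 91.9% in MII2 to 98.0% in MII5 among MII oocytes, and from 86.1% in GV9 to 92.2% in GV6 among GV oocytes. All MII oocytes but MII2 lay above every GV oocyte, and MII2 lay below GV6 and GV7 only. The 2 transcripts share no run of 31 bases in the annotation used here.

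**Figure D1:**
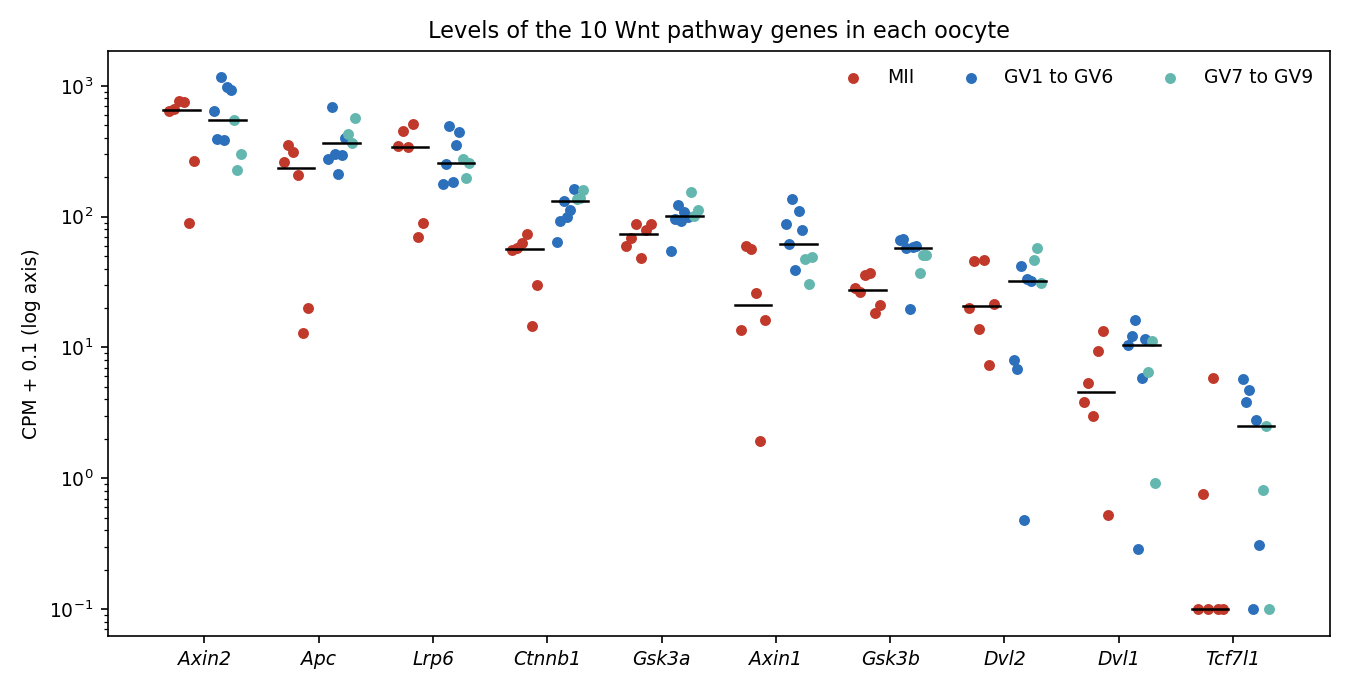
Level of each of the 10 genes in CPM + 0.1 on a log axis, with 1 point per oocyte and a black line at the median of the 6 MII and of the 9 GV oocytes. Axin2 has the highest median in both stages, and every gene's ranges overlap. The MII points reach lower than the GV points through MII5 for Axin2 and Gsk3b, through MII4 for Gsk3a, and through MII5 and MII6 for Lrp6. They do so through MII4, MII5 and MII6 for Apc, through these and MII1 for Axin1, and through all but MII4 for Ctnnb1.

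Upstream in the pathway, Lrp6 encodes a coreceptor that binds Axin when a ligand is present. It had 69.2 CPM in the lowest, 343 in the median and 510.1 CPM in the highest MII oocyte, against 178, 256 and 492 CPM in GV oocytes. MII5 and MII6 were again the low ones, at 69.2 and 89.4 CPM, below every GV oocyte in CPM. Their log2 levels against each oocyte's median gene, 2.80 and 3.12, lay within the GV range of 2.38 to 4.40. The other 4 MII oocytes lay between 338 and 510.1 CPM, within or just above the GV range. Its relative ratio was 0.88 with a combined SD of 1.10, and 1.18 with MII5 and MII6 left out.

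Lrp5, the second coreceptor, took the larger part of the counts of this pair, 71.7% over MII and 70.8% over GV oocytes. The share of Lrp6 ran from 16.5% to 47.0% in MII oocytes and from 22.7% in GV3 to 69.4% in GV9. The stages overlapped, and the highest shares were those of GV8 and GV9.

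Dvl1 and Dvl2 encode Dishevelled adaptors, which recruit Axin to the receptor. Dvl2 had 7.28 CPM in the lowest, 20.5 in the median and 46.1 in the highest MII oocyte, against 0.379, 32.2 and 57.1 CPM in GV oocytes. GV4, with 2 counts, was the low one, GV1 and GV2 lay at 7.91 and 6.80 CPM, and the ranges overlapped. The relative ratio of Dvl2 was 0.90, the highest of the 9 measured members, with a combined SD of 2.08. It was 1.25 with GV1 to GV6 alone and 0.09 with GV7 to GV9 alone.

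Dvl1 was the lowest measured member per length. It had 0.426, 4.48 and 13.4 CPM in the lowest, median and highest MII oocyte, against 0.190, 10.4 and 16.0 CPM in GV oocytes. MII5 was high and MII6 low among MII oocytes, GV4 and GV9 were low among GV oocytes, and the ranges overlapped. Its relative ratio was 0.42 with a combined SD of 1.90.

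The paralog Dvl3 took most of the Dishevelled counts, 89.6% over MII and 92.0% over GV oocytes. Dvl3 ran from 81.9% to 96.6% of these counts in single MII oocytes and from 78.1% to 99.8% in GV oocytes. The members Dvl1 and Dvl2 were thus the minor Dishevelled transcripts in all 15 oocytes, at 1.86% and 8.52% over MII and 1.88% and 6.16% over GV oocytes.

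**Figure D2:**
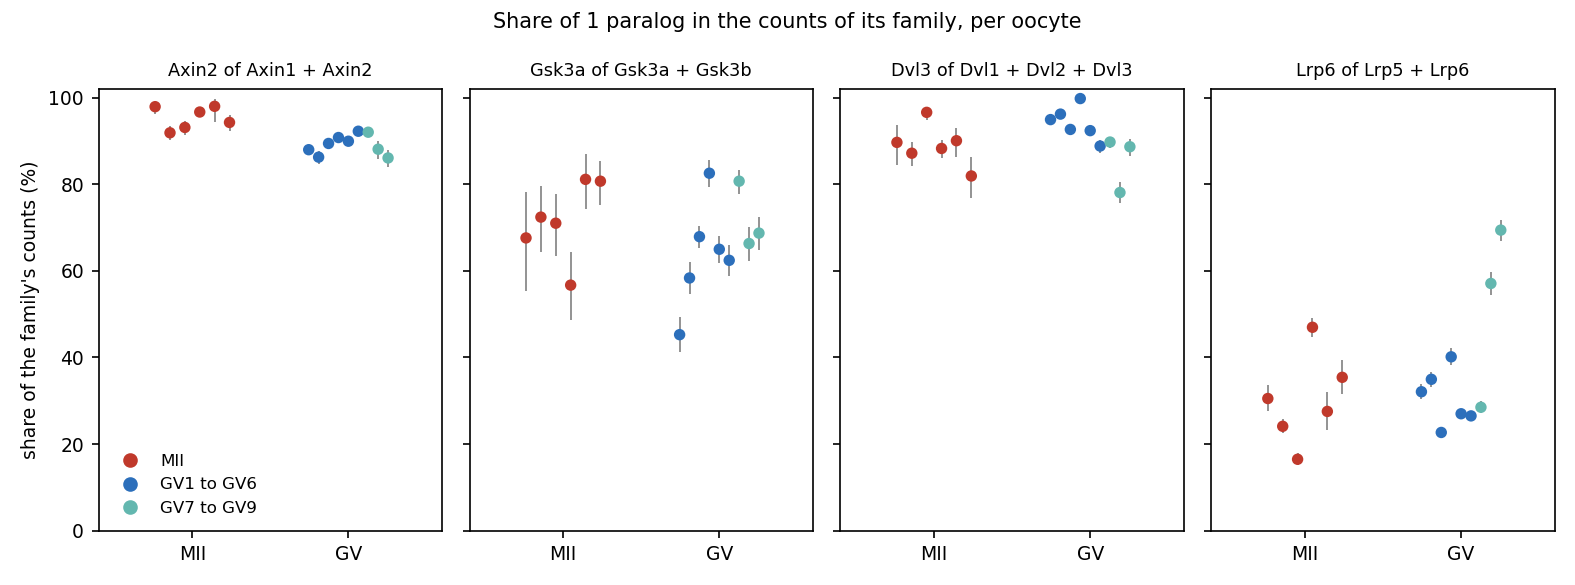
Share of 1 paralog in the counts of its family, in percent, with 1 point per oocyte and 95% Clopper-Pearson intervals, for Axin2, Gsk3a, Dvl3 and Lrp6. The Axin2 share is 91.9% to 98.0% in MII and 86.1% to 92.2% in GV oocytes, while the stages overlap broadly in the other panels.

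In the destruction complex, Apc encodes the large scaffold that binds β-catenin and Axin. Apc had 12.7 CPM in the lowest, 235 in the median and 356 in the highest MII oocyte, against 213, 366 and 683 CPM in GV oocytes. MII5 and MII6, at 12.7 and 20.0 CPM, lay far below the other 4 MII oocytes, which held 208 to 356 CPM and overlapped the GV range. Its relative ratio was -0.15 with a combined SD of 1.79, and 0.28 with MII5 and MII6 left out.

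Gsk3a encodes 1 of the 2 kinases that phosphorylate β-catenin in the complex. It had 48.2, 73.6 and 87.3 CPM in the lowest, median and highest MII oocyte, against 54.7, 100.5 and 155 CPM in GV oocytes. The ranges overlapped, and the SD over MII oocytes was 22.0% of the mean in CPM. Its relative ratio was 0.46 with a combined SD of 0.86, and 0.01 with MII5 and MII6 left out.

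Gsk3b, the paralogous kinase, had 18.2, 27.4 and 36.8 CPM in the lowest, median and highest MII oocyte, against 19.7, 57.7 and 67.8 CPM in GV oocytes. In CPM, GV4 alone among GV oocytes lay within the MII range with 19.7 CPM, next to 37.0 CPM in GV7 just above it. Set against each oocyte's median gene, log2 levels ran from 0.44 to 1.33 in MII and from -0.67 to 1.39 in GV oocytes. The GV range thus enclosed the MII range there, with GV4 the lowest. The relative ratio of Gsk3b was 0.04 with a combined SD of 0.68.

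Gsk3a took 72.8% of the counts of both kinases over MII and 66.7% over GV oocytes. Its share ran from 56.7% to 81.1% in MII oocytes and from 45.3% to 82.6% in GV oocytes. The GV range enclosed the MII range.

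Ctnnb1 encodes β-catenin, the protein this complex controls and a partner of cadherins at the cell surface. It had 14.6, 56.4 and 74.1 CPM in the lowest, median and highest MII oocyte, against 63.5, 132 and 163 CPM in GV oocytes. In CPM MII4 alone lay above the lowest GV oocyte, GV1, and MII5 and MII6 were the lowest. On the log2 scale against each oocyte's median gene, MII5 alone, at 0.62, lay below GV1, at 0.91. Relative to the median gene the ratio was -0.37 with a combined SD of 0.79, against -1.35 in CPM.

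Tcf7l1 encodes a TCF factor that mostly acts as a repressor. It had 12 counts in 2 of 6 MII oocytes and 105 counts in 7 of 9 GV oocytes. The highest levels were 5.70 CPM in MII4 and 5.62 CPM in GV1. It did not reach 5 CPM summed over either stage and was therefore not measured, so no ratio is read for it.

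In order of level per length, Axin2, chosen for its level, stood first and Gsk3a next in both stages, with 90.9 and 25.1 CPM per kb in MII and 122 and 36.1 CPM per kb in GV. Axin2 was the higher of the pair in 5 of 6 MII oocytes, all but MII5, and in 9 of 9 GV oocytes. Below Gsk3a, the neighbours Lrp6, Apc, Ctnnb1 and Axin1 followed in MII oocytes at 20.9, 10.6, 9.12 and 7.32 CPM per kb. Of these steps, that from Lrp6 to Apc exceeded its SD, and those from Gsk3a to Lrp6, from Apc to Ctnnb1 and from Ctnnb1 to Axin1 did not. In GV oocytes Ctnnb1, Apc, Lrp6 and Axin1 lay at 23.3, 23.3, 22.5 and 20.2 CPM per kb, with no step between them beyond its SD. Dvl2, Gsk3b and Dvl1 were lower in both stages by the stage sums, between 1.16 and 5.32 CPM per kb. The step from Axin1 to Dvl2 in MII oocytes, 0.56 on the log2 scale with an SD of 1.21, did not exceed its SD. That from Axin1 to Gsk3b in GV oocytes did, at 1.73 with an SD of 0.61.

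The 9 measured members each had at least 5 CPM in both stages. None was at least 2-fold lower in MII than in GV oocytes relative to the median gene, against 15.5% of all 10090 measured genes. None was at least 2-fold higher, against 12.1% of all genes, and 27.6% of all genes were past 2-fold in either direction. The median ratio of the 9 was 0.42, within the middle 50% of all genes, which spanned -0.59 to 0.54. In CPM with no centring all 9 ratios were below 0, and Axin1, Apc and Ctnnb1 were at least 2-fold lower, beside 49.1% of all genes. None was 2-fold higher on that scale, beside 2.01% of all genes.

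The oocytes used moved single members past 2-fold. Against GV1 to GV6 it was Dvl2 (1.25), where 12.3% of genes were 2-fold higher and 16.6% lower. Against GV7 to GV9 they were Axin2 (1.30) and Lrp6 (1.07), where 20.6% of genes were 2-fold higher and 20.7% lower. With MII5 and MII6 left out it was Lrp6 (1.18), where 10.7% were 2-fold higher and 17.6% lower. With GV1 and GV2 left out it was none of the 9, where 13.2% of genes were 2-fold lower and 11.4% higher. Leaving out 1 oocyte at a time gave 0 to 2 members past 2-fold. Dvl2 passed without MII3 (1.11), MII5, GV7, GV8 or GV3 (1.07), and Lrp6 passed without MII6 or GV3 (1.09). None of the 10 members had relative levels that did not overlap between stages, which 1.61% of measured genes showed with MII higher and 0.684% with MII lower. Their CPM ranges overlapped as well, while 0.0892% of genes did not overlap in CPM with MII higher and 4.65% with MII lower.

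**Figure D3:**
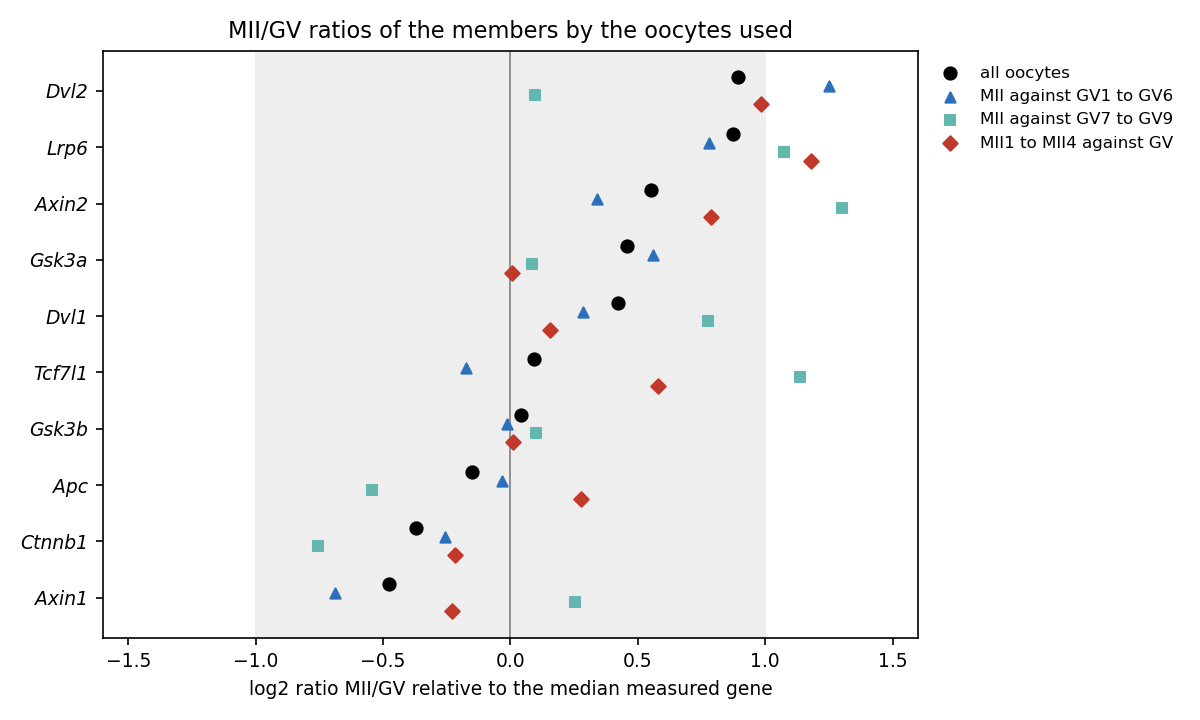
Log2 ratio MII/GV of each member relative to the median measured gene, with the grey band marking less than 2-fold, computed from all oocytes, with only GV1 to GV6, with only GV7 to GV9, and with only MII1 to MII4. From all oocytes every point lies inside the band, between -0.48 for Axin1 and 0.90 for Dvl2, and Tcf7l1 is shown although it was not measured.

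Among MII oocytes, the pair in which the unnamed feature took over 50% of counts differed from the other 4 for several members. Apc had a log2 ratio of -3.05 in MII5 and MII6 over MII1 to MII4 relative to the median gene, and Lrp6 had -1.43. Gsk3a had 1.34 in the same comparison, while the other 6 measured members lay between -0.99 and 0.96. In the pair 24.3% of all genes were 2-fold lower or more, and 25.3% were 2-fold higher or more.

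Transcript length moved with this difference. The median ratio was 1.12 for genes with merged exons under 2 kb, 0.38 from 2 to 5 kb, -0.47 from 5 to 10 kb and -1.05 at 10 kb or longer. Apc and Lrp6 are the longest members at 16116 and 13672 bp, and Gsk3a is the shortest at 2900 bp. Axin1, at 3828 bp, had -0.99 and Gsk3b, at 9831 bp, had 0.27, each with the opposite sign to the median of its length class. The other measured members had the same sign as their class. The part of length in the members' difference was not tested. In CPM, Axin2 stood at 193 over MII5 and MII6 and at 719 over MII1 to MII4.

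**Figure D4:**
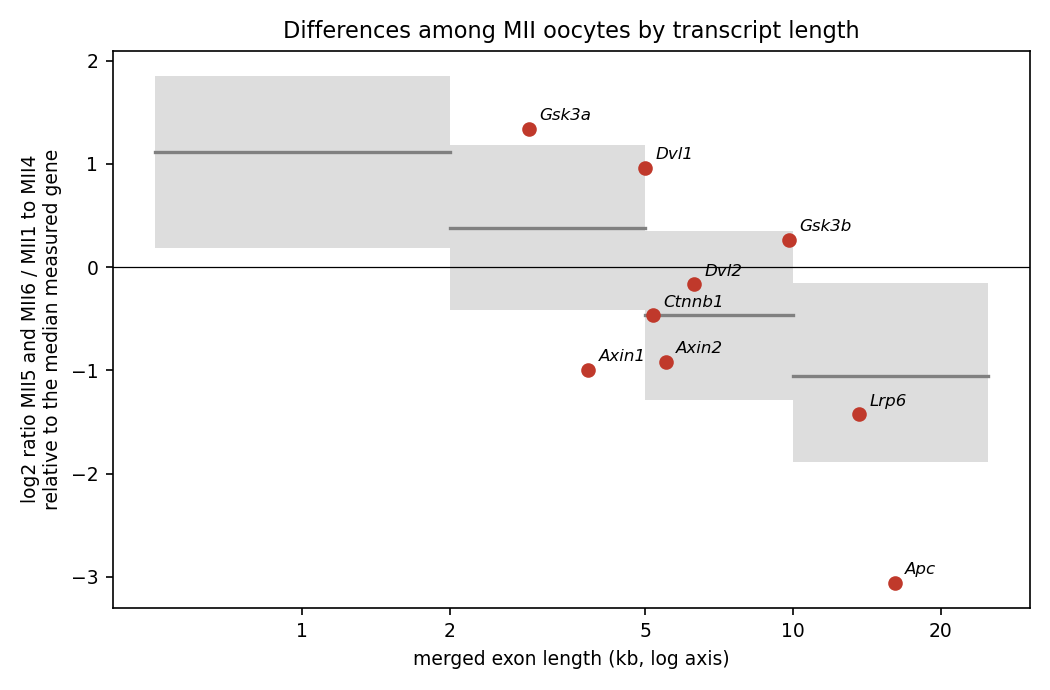
Log2 ratio of MII5 and MII6 over MII1 to MII4 relative to the median measured gene, against merged exon length in kb on a log axis, for the 9 measured members (points). Grey lines and bands give the median and middle 50% of all measured genes in each length class, and the median falls from 1.12 to -1.05. Gsk3a and Apc lie at the 2 ends, and Axin1 and Gsk3b have the opposite sign to the median of their class.

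Among GV oocytes, 1 member passed 2-fold between the file sets, Dvl2 at 1.22 in GV7 to GV9 over GV1 to GV6, where 18.1% of genes were 2-fold higher and 20.2% lower. Axin2 at -0.90 and Axin1 at -0.88 were the lowest of the 9. The share of Axin2 in the counts of both Axin genes was 89.6% in GV7 to GV9 and 89.7% in GV1 to GV6.

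Counts of some members could include reads of neighbours, since whether strand was used in counting is not stated. Exons of Ctnnb1 overlap those of Ulk4 on the opposite strand, which had 75 counts in MII and 567 in GV oocytes beside 456 and 5310 for Ctnnb1. Gsk3a overlaps an antisense transcript with 1 count in MII and 105 in GV oocytes, and Dvl2 overlaps Acadvl with 26 counts in MII and 4 in GV oocytes. Axin2 overlaps the antisense transcript Gm11670, which had 2 counts in MII and 0 in GV oocytes. Without strand, reads from these partners cannot be told apart.

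In the wider pathway, 129 genes were listed, 125 had a count and 70 were measured. Relative to the median gene 12 of the 70 (17.1%) were 2-fold lower in MII and 8 (11.4%) were 2-fold higher, beside 15.5% and 12.1% of all measured genes. With GV1 and GV2 left out, 63 were measured, 6 lower (9.52%) and 7 higher (11.1%), beside 13.2% and 11.4% of all genes. A gene that reached 5 CPM in a single stage is by that filter lower in the other, so these counts are descriptions. In 3 of the 70 (4.29%) the relative levels did not overlap, all with MII higher, beside 1.61% of all genes; they were Btrc, Ryk and Dact3.

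The destruction complex list held 16 measured genes, of which 0 were 2-fold lower and 2 were 2-fold higher, with a median ratio of 0.08. Without GV1 and GV2, 1 was 2-fold higher. Its most abundant gene was Zbed3, an Axin-binding protein, with 8951 CPM in the lowest, 12958 in the median and 16131 in the highest MII oocyte, against 9015, 11986 and 17037 CPM in GV oocytes. These CPM ranges nearly coincided, and the ratio relative to the median gene was 1.13, or 0.66 against GV7 to GV9. Btrc, the F-box protein that passes marked β-catenin to degradation, had 478, 697 and 985 CPM in MII oocytes, against 378, 568 and 943 CPM in GV oocytes. Its relative ratio was 1.04 with a combined SD of 0.50. Apc2, the APC paralog, had 14 counts in MII and 241 in GV oocytes, with a relative ratio of -0.89. The MII counts lay in MII3 and MII6 only, and 120 of the GV counts lay in GV6. Apc2 passed the 5 CPM filter only through its GV level, 5.49 CPM beside 1.45 CPM in MII. GV7, GV8 and GV9 held 13, 1 and 0 of its counts. Against these alone it was below the 5 CPM filter, so no ratio is read there.

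Wnt ligands were low outside GV1 and GV2. Of 19 listed ligands, 18 had a count, 11 of these were at 0 in all MII oocytes, and 2 were measured. The summed ligand level was 0 to 7.23 CPM in MII oocytes. In GV oocytes it was 129 and 158 CPM in GV1 and GV2 and 1.71 to 15.1 CPM in GV3 to GV9. GV1 and GV2 held 86.7% of the ligand counts of GV oocytes, and the most of 1 ligand elsewhere was 65 counts of Wnt2b in GV6. Wnt3, the most abundant ligand by the stage sums, had 173 and 188 counts in them, none in GV3 to GV9 and 2 in MII2 alone. Wnt7a had 4 counts in MII and 304 in GV oocytes. Both ligands passed the 5 CPM filter through these oocytes, and with GV1 and GV2 left out no ligand was measured.

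Several receptors and inhibitors were concentrated in the same 2 oocytes. Fzd2, a Frizzled receptor, had 252 and 290 counts in GV1 and GV2 and 0 in the other 13 oocytes. Sfrp2, a secreted Wnt-binding inhibitor, had 122 and 182 counts there and 0 elsewhere. GV1 and GV2 had counts for 18853 and 17794 genes, the most of the 15, and their cumulus and granulosa markers summed to 466 and 286 CPM beside 255 to 384 CPM in GV3 to GV9. The theca and stroma markers summed to 20.6 and 26.5 CPM in GV1 and GV2 beside 0.236 to 4.78 CPM in GV3 to GV9, and to 27.9 CPM in MII5. The oocyte markers summed to 26892 CPM in GV1 and 7477 CPM in GV2, beside 11508 to 28546 CPM in GV3 to GV9. The part of other cells in these counts was not tested.

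**Figure D5:**
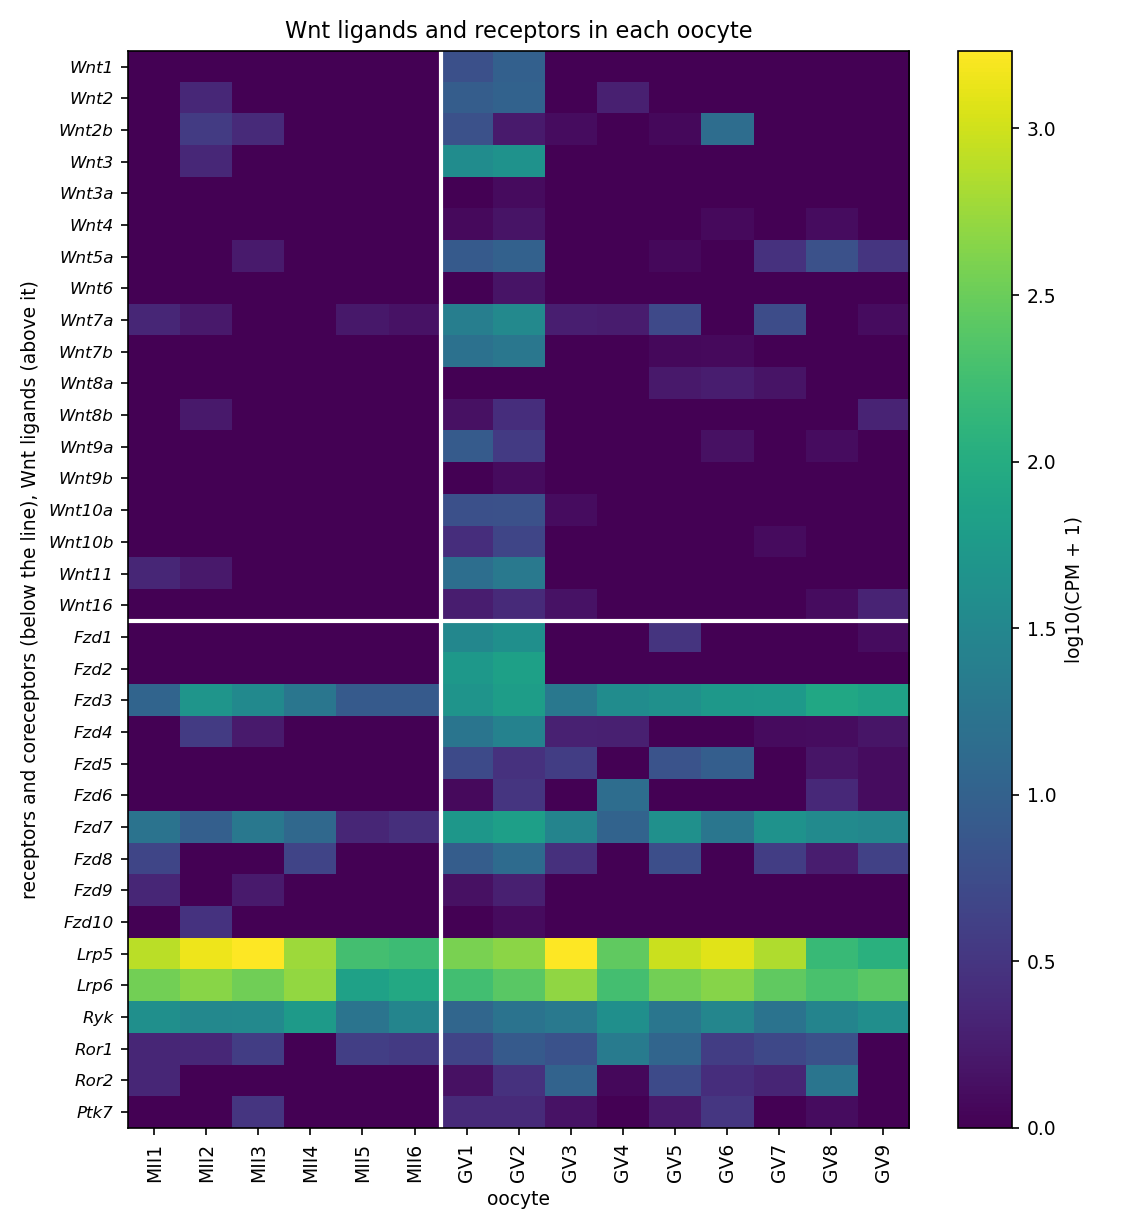
Wnt ligands (above the horizontal line) and receptors and coreceptors (below it) as log10(CPM + 1) in each oocyte, MII1 to MII6 left of the vertical line and GV1 to GV9 right of it. Most ligands, Fzd1 and Fzd2 have colour in GV1 and GV2 only or nearly so, while Lrp5, Lrp6, Ryk, Fzd3 and Fzd7 are present in all 15 oocytes.

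The receptor list had 8 measured genes, 3 of them 2-fold lower and 1 higher in MII. Of the lower ones, Fzd1 and Fzd2 had no count in MII and were measured only through GV1 and GV2, so their direction was fixed by the filter. The other lower one, Fzd7, had counts in every oocyte, with 1.21 to 18.9 CPM in MII and 9.67 to 65.0 CPM in GV oocytes. With GV1 and GV2 left out, 6 were measured, 1 lower and 1 higher, with a median of 0.20. Ryk, an atypical tyrosine kinase receptor for Wnt ligands, was the higher one. It had 16.4 CPM in the lowest, 32.1 in the median and 57.5 in the highest MII oocyte, against 10.6, 19.1 and 39.8 CPM in GV oocytes. The CPM ranges overlapped, the relative levels did not, and the relative ratio was 1.54 with a combined SD of 0.81. Lrp5 was the most abundant, with 163, 685 and 1710 CPM in MII oocytes, against 113, 470 and 1677 CPM in GV oocytes, and a relative ratio of 0.94.

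Among Dishevelled and its partners, 10 genes were measured, 1 was 2-fold lower and 2 were 2-fold higher, with a median of 0.41. Csnk1e, a casein kinase that phosphorylates Dishevelled, was the most abundant. It had 1023, 1097 and 1947 CPM in the lowest, median and highest MII oocyte, against 494, 1293 and 1616 CPM in GV oocytes, with overlapping ranges and a relative ratio of 1.18. Dact3, a Dishevelled-binding antagonist, had 24.3, 58.4 and 80.4 CPM in MII oocytes, against 7.20, 18.6 and 62.3 CPM in GV oocytes. Its relative levels did not overlap, and the ratio was 1.87 with a combined SD of 1.08. Csnk1g1, another casein kinase, had the lowest ratio at -1.22 with a combined SD of 1.57.

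R-spondins, their Lgr receptors and the E3 ligases they act on had 4 measured genes, 0 lower and 1 higher, with a median of 0.35, and 0 were higher without GV1 and GV2. Rspo2, a secreted amplifier of Wnt signalling, was the most abundant, with 98.8, 208 and 276 CPM in MII oocytes, against 135, 298 and 359 CPM in GV oocytes. The ranges overlapped, and the relative ratio was 0.39 with a combined SD of 0.54. Znrf3, which removes Frizzled from the surface, had a ratio of 1.04 with a combined SD of 2.22, with 1 count in MII5, and Rnf43, its paralog, had -0.27, or 1.13 with GV7 to GV9 alone.

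Of 16 inhibitors matched, 6 were measured, 4 of them 2-fold lower and 1 higher. The lower ones, Dkk1, Dkk3, Sfrp1 and Sfrp2, had at most 6 counts each in all MII oocytes together and were measured only through their GV level, so their direction was fixed by the filter. With GV1 and GV2 left out, 4 were measured, 2 lower and 1 higher. Dkk1, which blocks LRP coreceptors, had 2 counts in MII and 325 in GV oocytes, of which 177 were in GV4. Kremen1, a Dkk receptor, was the most abundant inhibitor at 84.4 CPM over MII and 143 CPM over GV oocytes, with a relative ratio of 0.22, or -0.30 with GV7 to GV9 alone. Sost, a secreted LRP inhibitor, had the highest ratio at 1.48 with a combined SD of 1.90.

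Of 16 measured TCF/LEF factors and nuclear cofactors, 1 was 2-fold lower and 1 was 2-fold higher, with a median of 0.16. With GV1 and GV2 left out, 15 were measured, 1 lower and 1 higher, with a median of 0.19. Crebbp, an acetyltransferase that acts with β-catenin, was the most abundant at 735 CPM over MII and 1542 CPM over GV oocytes, with a relative ratio of -0.09. Bcl9l, which links β-catenin to Pygo proteins, had 9 counts in MII and 491 in GV oocytes, of which 215 and 186 were in GV1 and GV2. It was the lower gene and was measured only through these 2 oocytes, so its direction was fixed by the filter. Pygo1, a cofactor bound through Bcl9 proteins, had the highest ratio at 1.004 with a combined SD of 0.99.

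Of 20 known transcriptional targets of the pathway, Axin2 included, 8 were measured, 1 was 2-fold lower and 1 was 2-fold higher, with a median of 0.29, and 0 were higher without GV1 and GV2. The median was -0.10 with MII5 and MII6 left out, -0.04 with GV1 to GV6 alone and 0.96 with GV7 to GV9 alone. The most abundant was Nkd1, a feedback inhibitor that binds Dishevelled. It had 412, 1136 and 2282 CPM in the lowest, median and highest MII oocyte, against 787, 1716 and 3171 CPM in GV oocytes. The ranges overlapped, and the relative ratio was 0.45 with a combined SD of 1.37. It was -0.23 with MII5 and MII6 left out and 1.46 with GV7 to GV9 alone. Per length, Nkd1 at 284 CPM per kb in MII and 410 CPM per kb in GV oocytes exceeded Axin2. Sp5, another target, had no count in MII oocytes and 211 in GV oocytes, of which 77 and 128 were in GV1 and GV2. Myc had none in MII oocytes and 52 in GV oocytes, of which 36 were in GV1. Of the 20 targets, 16 had a count in MII oocytes. Tcf7 and Lef1 had counts in every oocyte of both stages, with relative ratios of 0.92 and -0.09.

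All 6 listed genes for other catenins and for cadherins, which form adhesion complexes at the membrane, were measured, 1 of them 2-fold lower and 0 higher, with a median of 0.53. Without GV1 and GV2, 1 was lower and 1 higher. Cdh1, the E-cadherin gene, was the most abundant, with 292, 741 and 1257 CPM in MII oocytes, against 541, 812 and 1325 CPM in GV oocytes. The ranges overlapped, with a relative ratio of 0.59. Cdh3 had the lowest ratio at -1.26 with a combined SD of 1.38, and Cdh2 the highest at 0.98 with a combined SD of 1.07.

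The genes whose pattern over the 15 oocytes was most like that of Axin2 were found by the root mean square difference of their log2 levels, each centred on its own mean and on the median gene. Over 4141 protein-coding genes with at least 20 CPM in each stage, the median difference was 1.02. The 5 lowest were Osbpl11 at 0.287, Anapc2 at 0.322, Zswim8 at 0.333, Myo1c at 0.367 and Usp19 at 0.377. Among the members Lrp6 came nearest, at 0.477 and rank 35. Axin1 had 0.844 and rank 1118. A gene with the same relative level in every oocyte would have 0.872, the spread of Axin2 around its own mean, so Axin1 was hardly nearer than that.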

How the data were processed

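Each library is 1 oocyte, grouped by the stage in its label. The deposited values are whole-number read counts per Ensembl gene ID, 1 table per oocyte, per the file headers. Reads were handled with STAR 2.7.10a and cutadapt 4.0 and the genome build was GRCm39, per the submitters' processing notes. Not given in the sources used here are the counting program, its annotation, its use of strand and any UMIs. A gene absent from a table was taken as 0 counts.

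The 10 members, the gene lists and the alternatives were chosen with earlier results of these data known. Counts were summed by stage and given as CPM. Ratios are log2 of MII over GV, with 0.5 added to the summed counts, relative to the median of measured genes, those reaching 5 CPM in the stage where they are higher. The combined SD is the root of the summed squares of the SDs of the 2 stages, over oocytes, of log2(CPM + 1) minus that of the median measured gene, with the same pseudocount for likeness. Measured genes at least 2-fold apart were counted without a test. Sums have exact Poisson and shares exact Clopper-Pearson 95% intervals. Since PCR copies are not independent molecules, these intervals and the floor of 3 counts cover counting error only. Besides the 10 members, the text names for each list the most abundant measured gene and the genes of lowest and of highest ratio. The likeness search names its 5 nearest genes. Btrc, Fzd1, Fzd3, Fzd7, Dkk3, Sfrp1, Sp5, Myc, Tcf7, Lef1 and Dvl3 were named after their values were seen.

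Names, merged exon lengths and overlaps between exons came from GENCODE M21 on GRCm38, which was also compared with the upstream windows of the same build. None of its gene coordinates is printed. Of 28785 IDs, 28402 (98.7%) had a symbol, and the listed names Tiki1 and Tiki2 were not matched. Upstream windows came from RefSeq's promoter table on GRCm38.p6. A chi-square of counts over genes for all 51 pairs within a stage gave at least 7.26 per degree of freedom, and no pair agreed within sampling noise. The ratio code was tested on simulated data. TMM factors of edgeR 4.0.16 and median-of-ratios factors of DESeq2 1.42.0 served as other zero points only. Python 3.11.15, pandas 2.3.3, NumPy 2.4.6, SciPy 1.17.1, matplotlib 3.10.9 and R 4.3.3 were used.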

Additional observations from a re-analysis of the deposited data

Results flagged for a closer look

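Of 30 groups of oocytes checked (levels of the 10 genes and shares of the paralogs, in each stage), 3 held an oocyte far from the rest of its stage by Dixon's 95% criterion, a test of 1 value against the range of its group, and chance flags about 1 in 20 groups. For Tcf7l1, MII4 had a relative level of -1.16 on the log2 scale, with the other MII oocytes between -4.32 and -3.34, a difference that rests on 11 of the 12 counts of that gene in MII. For Dvl1, MII5 had a share of 6.43% of the Dishevelled counts, with the other MII oocytes between 0.355% and 1.97%. For Gsk3b, GV4 had a relative level of -0.67, with the other GV oocytes between 0.77 and 1.39.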

How the results depend on the processing

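No member of the 9 was 2-fold apart as reported, and the number was 0 to 2 when single oocytes were left out, with Dvl2 (1.07) and Lrp6 (1.09) past 2-fold without GV3, Dvl2 without MII3, MII5, GV7 or GV8 (1.003 to 1.115), and Lrp6 without MII6 (1.005). It was 3 with total counts and no centring, 2 with median CPM (Axin2 1.02 and Lrp6 1.19), 1 with genes measured at 1 CPM (Dvl2 1.02), 1 against GV1 to GV6 alone, 2 against GV7 to GV9 alone and 1 with MII5 and MII6 left out together. The members' median, 0.42 as reported, was -0.56 with total counts and no centring and 0.05 to 0.57 when single oocytes were left out. These shifts with total counts follow from the zero point, since the median gene lies at -0.98 there, at -0.29 without the unnamed feature, at -0.11 with TMM and at -0.06 with median-of-ratios factors. For the other shifts the cause was not tested. The Axin2 ratio, 0.55 as reported, ran from -0.43 to 1.30 over 27 alternatives, each less than the combined SD of 1.26 away from the reported value, and from 0.36 to 0.80 when single oocytes were left out. The Axin2 share per length was 92.5% in MII and 85.9% in GV oocytes. Of 216 values for the other 8 measured members, 213 moved by less than the spread between oocytes and 3 moved further, all with total counts and no centring. No paired analysis was possible because the replicate numbers only name oocytes and no result comes from a test. Depth limits Dvl1 and Tcf7l1, with 56 and 12 counts over all MII oocytes.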
